A study of Homo sapiens with 12 samples.

Results

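The respiratory chain and ATP synthase are built from subunits encoded by 2 genomes, and the mRNAs of both were followed here in polysome-associated RNA from 3 triple-negative breast cancer cell lines. Members were taken by symbol: protein-coding genes beginning NDUFA, NDUFB, NDUFC, NDUFS, NDUFV, UQCR, ATP5 or COX4 to COX8, together with SDHA, SDHB, SDHC, SDHD and CYC1, and the 13 protein-coding genes of the mitochondrial genome. Assembly factors named NDUFAF were left out. The rule gave 104 genes, 91 nuclear and 13 mitochondrial, of which 100 were among the 24559 symbols analysed and 98 (85 nuclear, 13 mitochondrial) passed the filter on low counts, out of 16538 genes tested. The nuclear members tested comprised 37 of complex I, 4 of complex II, 10 of complex III, 14 of complex IV and 18 of ATP synthase (complex V), plus the readthrough symbols NDUFC2-KCTD14 and ATP5MF-PTCD1. The mitochondrial genome contributed 7 subunits of complex I, 1 of complex III, 3 of complex IV and 2 of complex V.

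The study asked what TRMT112, an activating partner of several RNA methyltransferases, does to the translated mRNA of these cells. MDA-MB-231 and SUM159 cells carried either a GIPZ shRNA against TRMT112 (KD) or the control labelled empty vector (EV), which the methods describe as non-silencing, under puromycin selection. BT549 cells carried either a TRMT112 open reading frame clone (OE) or the empty vector of that clone (EV), under G418. Each of the 6 groups had 2 libraries of 22954226 to 27434677 counts. The media differed between lines, so a difference between lines cannot be told apart from a difference between media. The control vector and the selection drug of BT549 also differed from those of MDA-MB-231 and SUM159, and their part cannot be told apart from that of the line either. Nothing in the labels says that replicate libraries came from separate cultures, so p-values measure the spread between these libraries, which may be technical: replicates differed by a median of 0.08 to 0.10 on the log2 scale, although each pair differed by more than counting noise (a chi-square per degree of freedom of 2.09 to 3.13). No libraries of total RNA were analysed, so a change in the amount of an mRNA and a change in its loading on polysomes cannot be told apart. The paper reports smaller polysome peaks after KD in MDA-MB-231 and SUM159 and larger ones with OE in BT549. Counts were scaled within each library, so a rise or fall here is relative to the other polysome-associated RNA and not an absolute amount.

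The TRMT112 label held in each line. In MDA-MB-231 the level was 173 and 165 CPM (counts scaled to library size, with factors from the trimmed mean of M-values, TMM) in EV and 73.8 and 70.4 in KD. SUM159 had 265 and 275 CPM in EV against 163 and 155 in KD, and BT549 had 129 in both EV libraries and 179 and 181 in OE. The log2 changes were −1.23 ± 0.04, −0.76 ± 0.04 and 0.48 ± 0.04 (SE), so the rise of polysome-associated TRMT112 mRNA in OE was modest. The paper checked the protein by Western blot, which these values do not measure. Among markers of the lines, PGR had 0 to 9 counts and ERBB2 1478 to 3089 per library. Of the 5 epithelial markers, KRT8 and KRT18 had at least 4617 counts per library in MDA-MB-231 and SUM159 and 4 to 16 in BT549, EPCAM was at 0 to 4 outside MDA-MB-231, and KRT19 and CDH1 were at 0 to 8 in MDA-MB-231 and SUM159 and at 12 to 58 in BT549 EV. Of the 4 mesenchymal markers, vimentin (VIM) had 14860 to 46426 counts and CDH2 2 to 11 in MDA-MB-231 and at least 977 elsewhere. The leukocyte gene PTPRC had 0 to 16 counts and the liver gene ALB 0 to 4. The endothelial gene PECAM1 had 0 to 119 counts and was called higher in SUM159 KD (24 and 25 to 88 and 119) and in BT549 OE (1 and 0 to 4 in both).

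Complexes I, III and IV pump protons across the inner mitochondrial membrane, complex II feeds electrons in from succinate, and complex V uses the gradient to make ATP. Nuclear-encoded subunits are translated on cytosolic ribosomes and imported, and complex II is entirely nuclear. The mitochondrial mRNAs are transcribed from both strands of a small circular genome as long precursors, cut apart, and read by mitochondrial ribosomes inside the organelle. The lysis buffer held Triton X-100, a detergent that opens membranes. In such a polysome preparation, mitochondrial mRNA bound to mitochondrial ribosomes and mRNA carried along with the organelle cannot be told apart.

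Both genomes have sequence features that bear on how their mRNAs are measured or grouped. On the mitochondrial genome (GRCh38), MT-ATP8 (chrM:8366-8572) and MT-ATP6 (chrM:8527-9207) overlap by 46 bases, and MT-ND4L (chrM:10470-10766) and MT-ND4 (chrM:10760-12137) by 7, so reads in these stretches belong to either gene. The MT-ATP8/MT-ATP6 overlap at chrM:8527-8572 is shown with the MT-ATP6 start codon in capitals.

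MT-ATP8/MT-ATP6 overlap: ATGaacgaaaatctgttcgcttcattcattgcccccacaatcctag

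Many nuclear respiratory genes are known targets of the factors NRF1, GABPA and YY1. RefSeq promoters (GRCh38.p14, 250 bases before to 50 after each start) were present for 71 nuclear member symbols, 84 promoters in all. A core of the NRF1 motif, GCGC and TGCGC with any 1 base between them, stood on either strand in 20.2% of these promoters and in 5.78% of all 35116 promoters. CCGGAAG, a core of the GABPA motif, stood in 26.2% against 10.3%, and ATGGCGGC, a YY1 core, in 15.5% against 3.00%. At least 1 of these letter strings was in 50.0% of member promoters and 16.9% of all promoters. These are matches of letters and were not tested as binding sites. The 250 bases before the start are shown for 3 members on which the results below turn, with the matches in capitals. SDHA (chr5:218070-218319, plus strand) has 4 NRF1 matches, all on the opposite strand. UQCRC1 (chr3:48609647-48609896, minus strand) has 1 NRF1 match on the strand shown, and COX6B1 (chr19:35648073-35648322, plus strand) has 1 GABPA match on the opposite strand.

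SDHA: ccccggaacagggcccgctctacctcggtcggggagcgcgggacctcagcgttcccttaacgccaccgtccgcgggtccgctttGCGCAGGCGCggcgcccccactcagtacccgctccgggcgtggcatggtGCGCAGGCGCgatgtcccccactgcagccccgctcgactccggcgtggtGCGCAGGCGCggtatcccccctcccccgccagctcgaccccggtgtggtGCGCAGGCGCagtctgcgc

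UQCRC1: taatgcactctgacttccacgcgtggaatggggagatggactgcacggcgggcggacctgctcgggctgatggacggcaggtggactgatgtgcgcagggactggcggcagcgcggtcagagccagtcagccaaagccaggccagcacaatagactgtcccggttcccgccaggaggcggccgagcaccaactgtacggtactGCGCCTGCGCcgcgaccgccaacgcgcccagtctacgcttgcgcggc

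COX6B1: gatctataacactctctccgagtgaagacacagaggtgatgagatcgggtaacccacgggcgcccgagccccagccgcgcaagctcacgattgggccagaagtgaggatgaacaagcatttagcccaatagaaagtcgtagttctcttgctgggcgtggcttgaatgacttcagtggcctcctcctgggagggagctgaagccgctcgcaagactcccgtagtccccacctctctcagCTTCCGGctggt

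Relative to the nuclear members, the mitochondrial genes lost counts in every line. Mitochondrial protein genes held 0.630% and 0.623% of the counts in MDA-MB-231 EV and 0.464% and 0.472% in KD. In SUM159 they held 0.862% and 0.906% in EV and 0.768% and 0.807% in KD, and in BT549 0.810% and 0.800% in EV and 0.710% and 0.682% in OE. The share was therefore lower in both altered libraries than in both EV libraries of each line, in KD and OE alike. The nuclear members went down from 1.19% and 1.20% to 1.08% and 1.07% in MDA-MB-231, and up from 1.55% and 1.58% to 1.67% and 1.65% in SUM159 and from 0.968% and 0.965% to 1.17% and 1.16% in BT549. Mitochondrial counts per nuclear count went from 0.525 ± 0.00629 to 0.435 ± 0.00929 in MDA-MB-231, from 0.565 ± 0.0129 to 0.475 ± 0.0197 in SUM159 and from 0.833 ± 0.00541 to 0.597 ± 0.0130 in BT549 (mean ± SD, n = 2), with no overlap between the groups of a line. With 2 libraries against 2, an exact two-sided permutation test cannot go below p = 0.333, so these ratios carry no test.

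**Figure D1:**
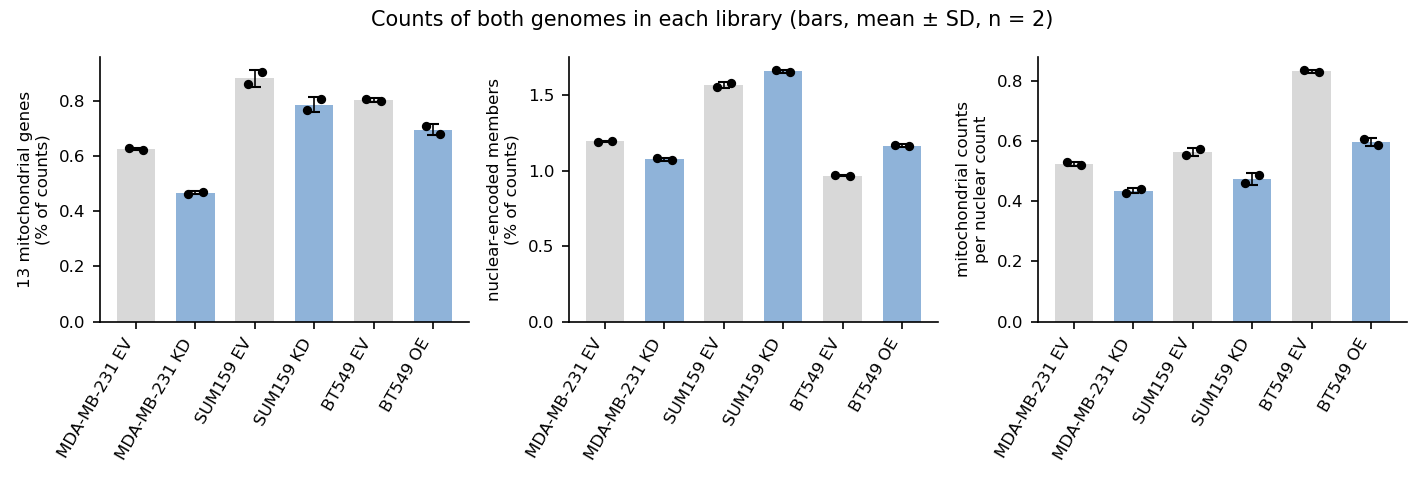
Percent of all counts in the 13 mitochondrial protein genes (left) and in the nuclear-encoded members (middle), and mitochondrial counts per nuclear count (right), for each library (points) with the group mean and SD (bars, n = 2). The mitochondrial share and the ratio were lower in KD or OE than in EV of each line, while the nuclear share was lower in MDA-MB-231 KD and higher in SUM159 KD and BT549 OE.

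Copies of mitochondrial genes in the nuclear genome held few of these reads: the nuclear pseudogenes of these genes had counts equal to 0.662% to 1.36% of the mitochondrial counts. The mitochondrial rRNAs were also present. The 16S rRNA gene MT-RNR2 fell in MDA-MB-231 KD (−0.27 ± 0.03) and SUM159 KD (−0.16 ± 0.03) and was not called in BT549 OE (0.05 ± 0.03, adjusted p = 0.181, edgeR's quasi-likelihood test with Benjamini-Hochberg adjustment). The 12S rRNA gene MT-RNR1 was not called in any line (0.04 ± 0.07, −0.15 ± 0.07 and −0.06 ± 0.06). The labels name poly(A) selection and the methods name rRNA depletion. The levels of these rRNAs and of mitochondrial mRNAs, whose tails are short, also rest on that step, and its part was not tested.

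In MDA-MB-231 KD, both genomes leaned downwards. Of the 13 mitochondrial genes, 10 fell, none rose and 3 were not called, with a median log2 change of −0.24, where 37.7% of all genes tested were called (16.5% fell and 21.2% rose) (edgeR's quasi-likelihood test, adjusted p under 0.05). No mitochondrial gene was called higher at an unadjusted p under 0.05 either, nor by DESeq2. Of the 85 nuclear members, 35 fell, 13 rose and 37 were not called, with a median of −0.09 against 0.00 for all genes. Scaling by library size alone gave 55 nuclear members lower and 6 higher. The nuclear RNA MALAT1 was 17.6 and 17.0 CPM in EV and 24.3 and 26.0 in KD (0.54 ± 0.09), and its part in these results was not tested.

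MT-CO1, the catalytic subunit of cytochrome c oxidase, had the largest fall among mitochondrial genes here. It was 2049.8 and 2024 CPM in EV and 1476 and 1500.1 in KD, a log2 change of −0.45 ± 0.03 (adjusted p = 8.27e-12, edgeR). MT-ND6, a complex I subunit and the only protein gene on the light strand, went from 236 and 247 to 175 and 180.1 CPM (−0.44 ± 0.04). The strand setting of the counts is not given, so whether reads of the other strand are included in its values is not known. MT-ND4L, at 34.8 and 37.3 CPM in EV, was 35.6 and 36.1 in KD, between the EV values.

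Among nuclear members the largest falls included those of small subunits and of NDUFB9, which has 537 coding bases. COX6B1, a small subunit of complex IV, was 173 CPM in both EV libraries and 116 and 112 in KD (−0.61 ± 0.03, adjusted p = 2.94e-12, edgeR). NDUFB9, an accessory subunit of the complex I membrane arm, went from 101 and 104 to 67.8 and 65.9 CPM (−0.62 ± 0.04). ATP5MJ, a small membrane subunit of ATP synthase, went from 23.5 and 24.98 to 14.4 and 13.9 CPM (−0.78 ± 0.08). NDUFA7, an accessory complex I subunit, had the largest called fall (−0.89 ± 0.18) but was low and uneven, with 12.7 and 20.4 CPM in EV and 7.45 and 10.5 in KD. Its call was lost when only its main transcript was tested.

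The rises in MDA-MB-231 KD were small. NDUFA9, a complex I subunit near the quinone site, went from 85.7 and 86.9 to 112 and 106 CPM (0.33 ± 0.05, adjusted p = 1.77e-05, edgeR). NDUFV2, an iron-sulfur subunit of the NADH-oxidising arm, rose by 0.28 ± 0.04 and COX4I1, the ubiquitous complex IV subunit 4, by 0.26 ± 0.03. By complex, 14 of 37 complex I members fell and 6 rose, 6 of 10 in complex III fell and none rose (none at an unadjusted p under 0.05 by edgeR or DESeq2), 7 of 13 in complex IV fell and 2 rose (COX7A1 set apart), and 8 of 18 in complex V fell and 3 rose. In complex II none fell (1, SDHD, at an unadjusted p under 0.05 by edgeR and 0 by DESeq2), and SDHB and SDHC rose by 0.13 ± 0.04 and 0.10 ± 0.03. Both calls were lost under library-size scaling, that of SDHB also without EV replicate 1 or KD replicate 1, and that of SDHC also without EV replicate 2 or KD replicate 2.

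In SUM159 KD the 2 genomes parted. Of the mitochondrial genes 12 fell and none rose (median −0.26), where 60.1% of all genes tested were called (31.4% fell and 28.6% rose). DESeq2 also called none higher, with 1 at an unadjusted p under 0.05. Of the nuclear members 49 rose, 17 fell and 19 were not called (median 0.21, all genes 0.00). The rises stood in complexes I (26 of 37 higher, 7 lower, median 0.29), IV (8 of 13 higher, 2 lower, median 0.36) and V (9 of 18 higher, 5 lower, median 0.08), with 4 of 10 higher and 2 lower in complex III.

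MT-CO1 was the mitochondrial gene without a call: it was 3221 and 3339 CPM in EV and 3195 and 3368 in KD, so the groups overlapped (0.00 ± 0.03). The other 12 changed by −0.33 (MT-ND2) to −0.10 (MT-CYB), and MT-CYB, MT-ATP8 and MT-ND4L lost their calls without SUM159 EV replicate 2, MT-CYB also without KD replicate 1. The part of MT-CO1 in the mitochondrial counts went from 38.5% to 42.2%, whereas it went from 36.2% to 33.3% in MDA-MB-231 KD and from 39.2% to 32.9% in BT549 OE.

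Several catalytic and core subunits fell in SUM159 KD, though others did not. UQCRC2, a core protein of complex III, went from 145 and 149 to 59.6 and 66.0 CPM, 2.34-fold lower by edgeR's quasi-likelihood test. The catalytic β subunit of ATP synthase, ATP5F1B, went from 1262 and 1276 to 635 and 621 CPM, and the α subunit, ATP5F1A, from 354 and 352 to 176 and 175, each about 2-fold lower (2.02 and 2.01). In these 3 genes every KD library was below every EV library by far more than the replicates differed.

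Other large subunits moved the same way, as did accessory members such as NDUFA10 (−0.69 ± 0.04) and NDUFV3 (−0.52 ± 0.07), both named after their values were seen. NDUFS1, the largest iron-sulfur subunit of complex I, went from 62.3 and 58.1 to 29.7 and 32.5 CPM (−0.95 ± 0.07). SDHA, the flavoprotein of complex II, was 229 CPM in both EV libraries and 143 and 146 in KD (−0.66 ± 0.04). UQCRC1 fell by 0.53 ± 0.03 and NDUFV1, the NADH-binding subunit, by 0.35 ± 0.03 on the log2 scale. CYC1, the cytochrome c1 of complex III, stood at 681 and 675 CPM in EV and 726 and 698 in KD (0.07 ± 0.03), a call that was lost without EV replicate 1, EV replicate 2 or KD replicate 1. Other core subunits did not fall in SUM159 KD. In complex I, NDUFS8, NDUFV2 and NDUFS7 changed by 0.42, 0.32 and 0.20 on the log2 scale. SDHB and UQCRFS1 changed by 0.06 each, so the falls were not shared by the core subunits as a class.

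The largest rises were in small subunits. ATP5MF, a membrane subunit of ATP synthase, went from 143 and 162 to 296 and 305 CPM (0.98 ± 0.05, adjusted p = 8.79e-15, edgeR). ATP5IF1, the inhibitor that binds ATP synthase when it runs in reverse, went from 148 and 153 to 267 and 269 CPM (0.84 ± 0.04). COX6B1 went from 217 and 215 to 335 and 328 CPM (0.62 ± 0.03), opposite to its change in MDA-MB-231. The readthrough symbol NDUFC2-KCTD14 had the highest change (1.11 ± 0.18) at 3.15 to 9.55 CPM, but it shares exons with NDUFC2 (0.41 ± 0.04) and their reads are hard to assign.

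**Figure D2:**
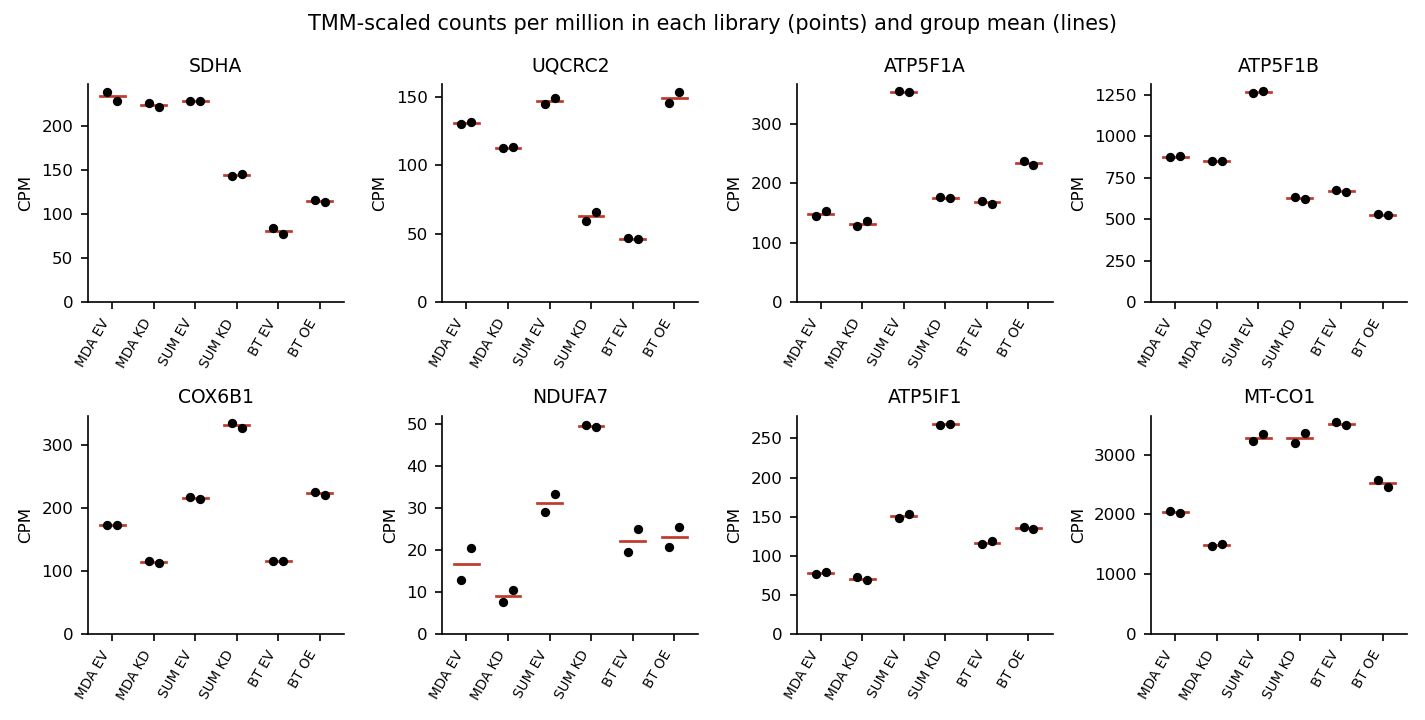
TMM-scaled CPM of 8 members in each of the 12 libraries (points) with the group mean (lines). SDHA, UQCRC2, ATP5F1A and ATP5F1B were lowered in SUM159 KD, COX6B1, NDUFA7 and ATP5IF1 were raised there, and MT-CO1 was lowered in MDA-MB-231 KD and BT549 OE and was not called in SUM159 KD.

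An interaction term of the fit compared the KD effect of MDA-MB-231 with that of SUM159. By this term 50.9% of all genes differed (27.7% more positive in MDA-MB-231, 23.2% more negative). Of the nuclear members 51 were more negative in MDA-MB-231, 15 more positive and 19 not called, with a median difference of −0.32. Of the mitochondrial genes 10 of 13 were not called, 2 were more negative in MDA-MB-231 (MT-CO1, −0.45 ± 0.04; MT-ND6, −0.23 ± 0.06) and 1 more positive (MT-ND4L, 0.24 ± 0.09). The MT-ND4L call was lost with other scalings and without MDA-MB-231 EV replicate 1, MDA-MB-231 KD replicate 1 or 2, SUM159 EV replicate 2 (0.14) or SUM159 KD replicate 2. Counting each line's own calls, 22 nuclear members (25.9%) were lower in MDA-MB-231 and higher in SUM159, as were 4.87% of all genes tested. Another 6 (7.06%) were higher in both lines and 6 lower in both, near the 8.86% and 7.47% of all genes, and 3 (3.53%, all genes 7.37%) were higher in MDA-MB-231 and lower in SUM159. Of the mitochondrial genes 9 of 13 were lower in both.

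The difference was widest, downwards, for NDUFA7 (−1.56 ± 0.22), COX6B1 (−1.23 ± 0.05) and ATP5MF (−1.22 ± 0.08), all small. Upwards it was wide for UQCRC2 (1.01 ± 0.06) and ATP5F1B (0.97 ± 0.03), both large. ATP5F1B in MDA-MB-231 was 874 and 883 CPM in EV and 853 and 850.5 in KD (−0.04 ± 0.02, adjusted p = 0.173, edgeR), so the fall of SUM159 was not called there. UQCRC2 fell in MDA-MB-231 by 0.22 ± 0.04 on the log2 scale, less than in SUM159.

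BT549 OE raised most nuclear members. Of the 85, 60 rose, 13 fell and 12 were not called, with a median of 0.36 (all genes 0.02, of which 70.6% were called, 35.6% higher and 35.0% lower). Without COX7A1 they were 59 of 84, with a median of 0.35. Markers of the line moved in the same libraries: 3 of 4 mesenchymal markers fell (VIM from 43227 and 42873 to 15758 and 14860 counts), and their summed level was 2205 to 2216 CPM in EV and 839 to 869 in OE. The nuclear RNA NEAT1 went from 1.37 and 1.57 to 4.68 and 7.10 CPM, while MALAT1 was not called, and the part of these changes in the results was not tested. All of complex III but UQCRFS1 rose (9 of 10, median 0.62), and complexes I (26 of 37, 6 lower), II (3 of 4, 1 lower), IV (10 of 13, 1 lower) and V (11 of 18, 4 lower) each rose more often than they fell.

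With COX7A1 set apart, UQCRC2 rose most, from 46.5 and 45.9 to 146 and 154 CPM, 3.24-fold (1.70 ± 0.05, adjusted p = 3.66e-19, edgeR). NDUFB10, an accessory subunit of the complex I membrane arm, went from 58.9 and 57.0 to 169 and 165 CPM (1.53 ± 0.05). ATP5F1E, the ε subunit of the ATP synthase stalk, went from 25.7 and 25.6 to 69.9 and 69.8 CPM (1.44 ± 0.07). SDHA rose from 84.2 and 76.9 to 116 and 114 CPM (0.51 ± 0.04), UQCRC1 from 193 and 194 to 284 and 282 (0.55 ± 0.03) and COX6B1 from 115 and 116 to 226 and 221 (0.95 ± 0.03). For SDHA the call did not hold for its main transcript alone.

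COX7A1, the heart and muscle isoform of a complex IV subunit, was at 0 counts in both BT549 EV libraries and at 11.5 and 11.3 CPM in OE, at least 81.4-fold higher against a floor of 3 counts per library. It passed the filter only through OE. In MDA-MB-231 and SUM159 1 of 8 libraries had a single count, but 3 of its 4 listed transcripts, which held 85.1% of its OE counts, carry a question mark in place of a value there and were taken as 0. The other tissue isoforms were low or not analysed here: COX6B2 had 0 to 8 counts per library and COX4I2, COX6A2, COX7B2 and COX8C were not among the symbols. The ubiquitous partner COX7A2 went from 128 and 126 to 152 and 148 CPM in BT549 OE (0.24 ± 0.04). NDUFA4L2, a paralog of the complex IV subunit NDUFA4, was at 0 to 2 counts in MDA-MB-231 and at 2.70 and 3.03 CPM in SUM159 EV against 1.52 and 0.977 in KD (−1.21 ± 0.40), a call lost without SUM159 EV replicate 2 or KD replicate 2.

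The largest falls of BT549 OE were in complexes I and V. NDUFA8, an accessory complex I subunit, went from 190.2 and 179 to 99.2 and 98.3 CPM, 1.87-fold lower (−0.90 ± 0.04, adjusted p = 6.82e-15, edgeR). NDUFA9 fell from 97.0 and 99.3 to 55.5 and 61.9 CPM (−0.74 ± 0.06), and NDUFB11 from 135 and 128 to 89.6 in both (−0.55 ± 0.04). ATP5PD, of the ATP synthase stator, fell by 0.55 ± 0.03, and ATP5F1B by 0.34 ± 0.03, whereas its partner ATP5F1A rose by 0.48 ± 0.04. The α and β subunits thus moved in opposite directions in BT549 OE and together in SUM159 KD.

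**Figure D3:**
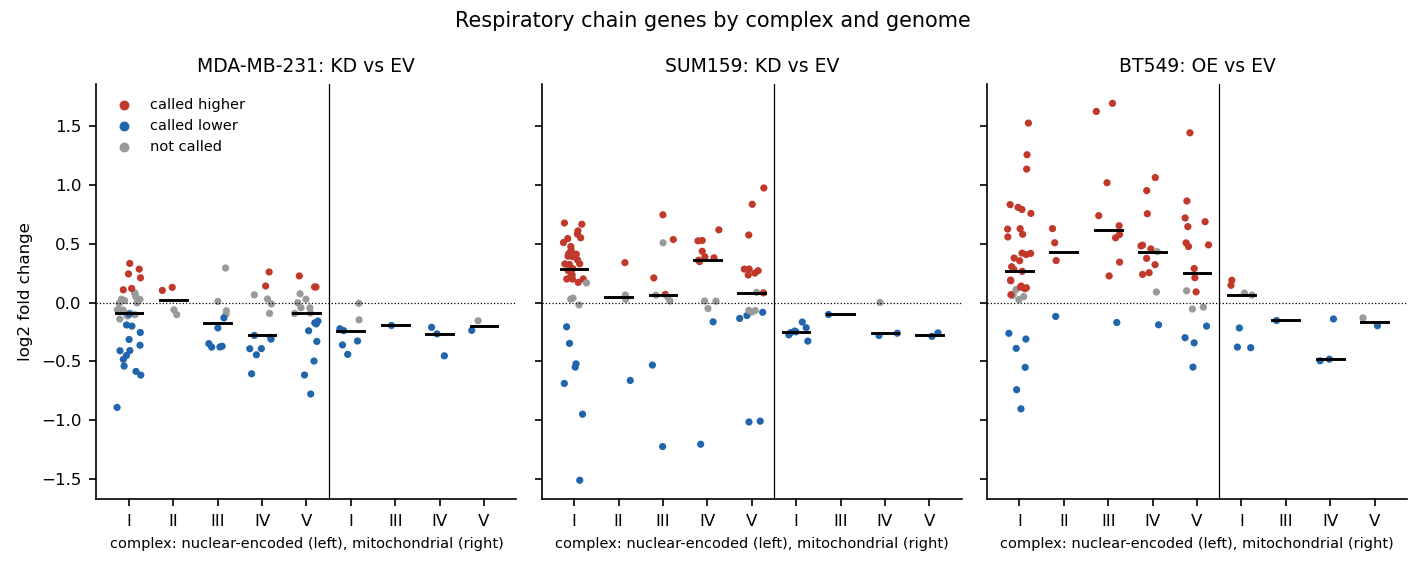
Log2 fold change of each member by complex for nuclear-encoded (left of the line) and mitochondrially encoded genes (right) in the 3 comparisons, coloured by call at an adjusted p under 0.05 (edgeR), with the median of each complex as a bar. COX7A1 and the readthrough symbols are not drawn. Nuclear medians lay near or below 0 in MDA-MB-231 KD and above 0 in SUM159 KD and BT549 OE, while mitochondrial medians lay below 0 except complex I in BT549 OE (0.06).

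Of the 13 mitochondrial genes in BT549 OE, 8 fell, 2 rose and 3 were not called (median −0.14). Of all genes tested 70.6% were called there, 35.0% lower and 35.6% higher. The changes of the mitochondrial genes lay in an order along the genome. The genes at the start fell most: MT-ND1 by 0.38 ± 0.04, MT-ND2 by 0.38 ± 0.04, MT-CO1 by 0.48 ± 0.03 and MT-CO2 by 0.50 ± 0.04 on the log2 scale. The middle genes changed by −0.22 to −0.13 (MT-ATP8, MT-ATP6, MT-CO3, MT-ND3). Those further on were at or above 0, with MT-ND4L at 0.06 ± 0.06, MT-ND4 at 0.15 ± 0.04, MT-ND5 at 0.08 ± 0.04 and MT-ND6 at 0.19 ± 0.04, and the last, MT-CYB, at −0.14 ± 0.03. MT-ND4 was 847 and 806 CPM in EV and 954 and 876 in OE, and its call was lost without BT549 OE replicate 1. Without BT549 OE replicate 2, that of MT-ND3 was lost.

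The rank correlation of the change with gene order was 0.76 in BT549 (n = 13 genes), 0.16 in MDA-MB-231 and 0.36 in SUM159. Apart from MT-ND6, which lies on the other strand, these genes share precursors, and all share libraries, so the values are descriptions. MT-CYB departs from this order in BT549 OE (−0.14, after 0.19 at MT-ND6). Leaving it out, with MT-ND6 kept, therefore raised the BT549 value to 0.86, and gave 0.06 in MDA-MB-231 and 0.26 in SUM159 (n = 12). The pattern was noticed in these data.

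**Figure D4:**
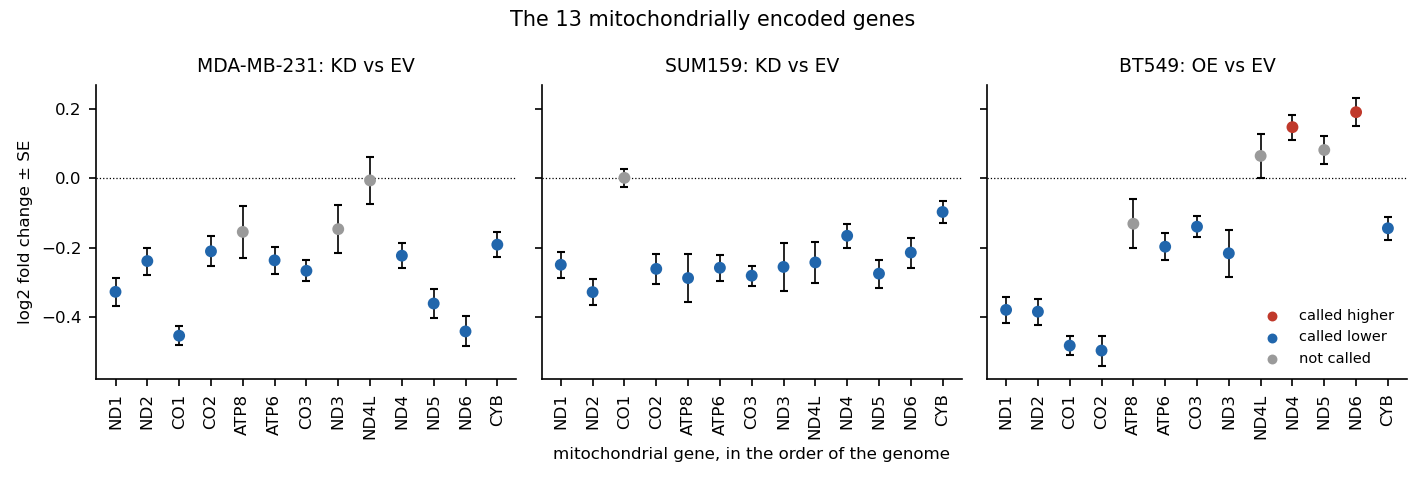
Log2 fold change ± SE of the 13 mitochondrial protein genes, in the order of the genome, in each comparison, coloured by call (edgeR). In BT549 OE the change goes from −0.50 at MT-CO2 to 0.19 at MT-ND6, MT-CO1 stands alone at 0.00 in SUM159 KD, and in MDA-MB-231 KD the largest falls are MT-CO1 and MT-ND6.

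Nuclear members also differed by the size of the protein they encode, a feature that the rule did not use. Lengths were split at 450 and 900 coding bases after the values had been seen, so the split is a description. In SUM159 KD the 49 members under 450 bases had a median of 0.33 (33 higher, 4 lower) and the 23 from 450 to under 900 bases 0.21 (15 higher, 2 lower). The 13 of at least 900 bases had a median of −0.66 (1 higher, 11 lower). The shares higher were 67.3% and 65.2% in the first 2 bins, against 51.4% and 46.2% of all genes in them, and the share lower was 84.6% in the long bin, against 41.6%. Among all genes tested with a coding length the medians were 0.27, 0.19 and −0.13, so the same order held in the whole table and the long members stood lower than long genes in general.

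In MDA-MB-231 KD the short members were the lowest. They had a median of −0.19 (28 lower, 1 higher), the middle ones 0.07 (3 lower, 9 higher) and the long ones −0.06 (4 lower, 3 higher), against −0.15, 0.03 and 0.01 for all genes. Of the short members 57.1% were called lower, against 36.8% of all short genes. In BT549 OE the medians were 0.46, 0.13 and 0.31 against 0.38, 0.10 and −0.10. Rank correlations of coding length with change over the 85 nuclear members were 0.46 in MDA-MB-231 KD, −0.38 in SUM159 KD and −0.39 in BT549 OE, and over 13879 genes 0.03, −0.21 and −0.10. Short mRNAs hold few ribosomes and so lie in lighter polysomes, and the methods say that fractions of translating polysomes were pooled without naming which. Whether that pooling has a part in these values was not tested.

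**Figure D5:**
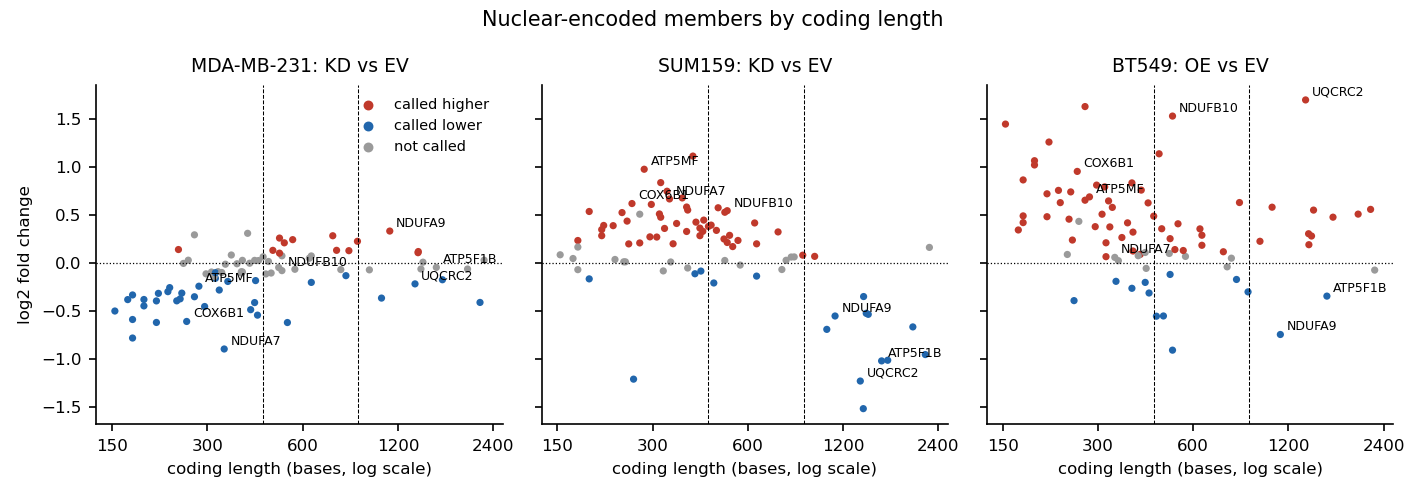
Log2 fold change of nuclear-encoded members against coding length (bases, log scale) in each comparison, coloured by call (edgeR), with dashed lines at 450 and 900 bases and COX7A1 not drawn. In SUM159 KD 11 of the 13 members of at least 900 bases are below 0 and called, whereas in MDA-MB-231 KD the called falls gather under 450 bases.

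The EV groups compare the lines without TRMT112 being altered. Medium goes with the line, and in comparisons with BT549 EV so do the control vector and the selection drug. SUM159 EV was above MDA-MB-231 EV for 69 of 85 nuclear members and below for 8 (median 0.51), where 75.7% of all genes were called, 39.2% higher and 36.4% lower. All 18 complex V members were higher, ATP5MF by 1.78 ± 0.05 and the inhibitor ATP5IF1 at 148 and 153 against 76.7 and 79.5 CPM. BT549 EV was below SUM159 EV for 66 and above for 13 (median −0.62, of all genes 78.4% were called, 40.7% lower and 37.7% higher), and against MDA-MB-231 EV it was higher for 38 and lower for 32 (79.5% of all genes were called, 39.1% higher and 40.4% lower). The large subunits NDUFS1 (−1.92 ± 0.07), SDHA (−1.54 ± 0.04) and UQCRC2 (−1.50 ± 0.05) were among the lowest in BT549 EV relative to MDA-MB-231 EV. So was NDUFV3, at 9.66 and 8.48 CPM in BT549 EV against 27.9 and 31.1 in MDA-MB-231 EV.

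Mitochondrial genes were higher in both other lines than in MDA-MB-231, 11 of 13 in SUM159 (1 lower) and 13 of 13 in BT549. MT-CYB, the cytochrome b of complex III, differed most: it was 289 and 287 CPM in MDA-MB-231 EV, 818 and 846 in SUM159 EV and 983 and 930.5 in BT549 EV. The log2 differences from MDA-MB-231 were 1.53 ± 0.03 and 1.73 ± 0.03, against medians of 0.69 and 0.50 for all 13 genes. Comparisons with BT549 EV rest on the scaling: library size alone moves the median of all genes by −0.31 against MDA-MB-231 (from −0.03 to −0.34) and by −0.21 against SUM159 (from −0.06 to −0.27), and the values here are on the TMM scale.

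Per length, MT-CO1 was the most abundant mitochondrial mRNA in each group, from 1864 TPM (transcript abundance scaled for length and depth) in MDA-MB-231 KD to 3818 in SUM159 EV, and MT-ND3 was the least, at 153 to 209.9 TPM. The gap between MT-CO1 and the next gene, MT-ATP6 or MT-CYB, was at least 872 TPM in every group. Among nuclear members COX4I1 and NDUFS5 were among the top 3 by TPM in all 6 groups, with COX4I1 at 1071 ± 10.2 TPM in BT549 EV and 1888 ± 51.3 in SUM159 KD. CYC1 was at 983 ± 19.2 TPM in SUM159 KD and 1510.3 ± 11.0 in BT549 OE. ATP5F1B ranked 4 among nuclear members in both SUM159 EV and MDA-MB-231 EV, at 1313 ± 0.0599 and 1040.2 ± 9.56 TPM, and was 602 ± 5.27 TPM in SUM159 KD.

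Among genes that build the complexes or express the mitochondrial genome, the lists were chosen by role with earlier results known. The shares of all genes set beside the lists were not matched for coding length, with which they changed. In SUM159 KD 41.6% of all genes of at least 900 bases fell, and in MDA-MB-231 KD 36.8% of those under 450 bases. Of 55 assembly factors, 27 fell and 3 rose in MDA-MB-231 KD, 21 fell and 18 rose in SUM159 KD, and 9 fell and 31 rose in BT549 OE. The shares were 49.1% lower in MDA-MB-231 KD (all genes 16.5%) and 56.4% higher in BT549 OE (all genes 35.6%), while the 38.2% lower and 32.7% higher in SUM159 KD lay near the 31.4% and 28.6% of all genes. COX16 (−1.04 ± 0.08) and COA4 (−0.38 ± 0.06), complex IV factors, led the falls of MDA-MB-231 KD by p. SCO1 and COX15, which serve the copper and heme of complex IV, both fell in SUM159 KD (−0.72 ± 0.05 and −0.71 ± 0.06). SCO1 rose in BT549 OE (0.89 ± 0.04), as did TTC19 of complex III (1.23 ± 0.05).

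Of 30 genes of mitochondrial DNA expression, 24 fell and 2 rose in SUM159 KD, with a median of −0.52, so that 80.0% fell against 31.4% of all genes. In MDA-MB-231 KD 7 fell and 8 rose, and in BT549 OE 14 fell and 8 rose (23.3% and 46.7% lower, against 16.5% and 35.0% of all genes). POLRMT, the mitochondrial RNA polymerase, was 65.4 and 63.9 CPM in SUM159 EV and 29.3 and 28.5 in KD (−1.16 ± 0.07), fell in MDA-MB-231 KD (−0.40 ± 0.06) and rose in BT549 OE (0.97 ± 0.07). TBRG4, which stabilises some mitochondrial mRNAs, went from 87.2 and 91.8 to 42.0 and 44.4 CPM in SUM159 KD (−1.05 ± 0.05) but rose in MDA-MB-231 KD (0.51 ± 0.05), a difference of 1.56 ± 0.08. PNPT1, the mitochondrial polynucleotide phosphorylase, fell in SUM159 KD (−1.20 ± 0.06), BT549 OE (−1.23 ± 0.07) and MDA-MB-231 KD (−0.46 ± 0.06). SLIRP, which binds mitochondrial mRNA with LRPPRC, fell in MDA-MB-231 KD (−0.73 ± 0.08) and was not called in SUM159 KD (0.01 ± 0.06), where LRPPRC fell (−0.98 ± 0.06).

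Of 9 regulators, none rose and 4 fell in MDA-MB-231 KD (1, PPRC1, rose at an unadjusted p under 0.05 by edgeR, and 1 by DESeq2, none after adjustment), 2 rose and 6 fell in SUM159 KD, and 3 rose and 2 fell in BT549 OE. The shares lower were 44.4% in MDA-MB-231 KD (all genes 16.5%), 66.7% in SUM159 KD (31.4%) and 22.2% in BT549 OE (35.0%). MYC, a transcription factor that raises many mitochondrial genes, fell by 1.23 ± 0.03 in SUM159 KD and 0.36 ± 0.03 in MDA-MB-231 KD on the log2 scale. GABPA fell in both (−0.76 ± 0.08 and −0.25 ± 0.08). PPARGC1A, the PGC-1α coactivator, was low, with 39 to 76 counts in MDA-MB-231 and 142 to 275 in SUM159, and went down in MDA-MB-231 KD (−0.76 ± 0.22) and up in SUM159 KD (0.79 ± 0.16). In BT549 OE, PPRC1, a relative of PGC-1α, rose (0.71 ± 0.08) and YY1 fell (−0.32 ± 0.03).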

How the data were processed

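Polysome fractions of sucrose gradients gave 12 RNA libraries in 6 groups of 2. Per the study's methods and the submitters' processing notes, the authors used Trimmomatic for trimming, HISAT2 for alignment (GRCh38), SAMtools to drop duplicates, and Partek. The counter, annotation and strand setting are not given in the sources used here, and removing duplicates can lower the counts of very abundant short mRNAs. The authors deposited expected counts for 201932 Ensembl transcripts, whose columns sum to 22954226 to 27434677 per library. In the 8 MDA-MB-231 and SUM159 columns 5.08% of transcripts carry a question mark, taken here as 0.

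Transcripts were matched to the annotation without their version number (79.6% of transcripts, holding 99.2% to 99.4% of the counts), summed per symbol, giving 24559 symbols (111 hold several genes), then rounded to whole numbers. Tables were prepared in Python 3.11.15 (numpy 2.4.6, pandas 2.3.3, scipy 1.17.1) and figures in matplotlib 3.10.9. In R 4.3.3, edgeR 4.0.16 kept 16538 genes by filterByExpr, scaled them by TMM (factors 0.895 to 1.12) and tested them by quasi-likelihood in 1 fit of 6 group means (6 residual degrees of freedom, common dispersion 0.000835). Calls are at a Benjamini-Hochberg adjusted p-value under 0.05 over all genes. DESeq2 1.42.0 was an alternative, with other scalings, filters, a replicate block, single lines, single transcripts and left-out libraries. In simulated MDA-MB-231 data on 15997 genes, 82.8% of changes of 0.5 and 94.1% of changes of 1 (log2) were recovered. The simulation changed 99 genes by 0.5 and 101 by 1, all with a mean of at least 50 counts. It gave every gene the common dispersion, so these rates need not hold for the real tests. TPM, from the deposited counts and GENCODE transcript lengths, served only to compare levels between genes.

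The members and lists were chosen with earlier results of these data known. The rule named the 13 mitochondrial genes, some of the catalytic and core subunits, and tissue isoforms. In each comparison it also named the 2 genes of smallest p in each list. Among called nuclear members with a mean of at least 50 counts, it named the 3 largest changes in each direction per comparison. An item that the rule would name is not reported here, though counts and medians include it. ATP5PD, COX7C, LRPPRC, NDUFA10, NDUFAB1, NDUFC2, NDUFS5, NDUFS7, NDUFS8 and NDUFV3 were named after their values were seen. Intervals cover the spread between libraries only.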

Additional observations from a re-analysis of the deposited data

Results flagged for a closer look

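The KD effect differed between MDA-MB-231 and SUM159, by edgeR's test of the difference itself with Benjamini-Hochberg adjustment, for 32 of the 51 named members and TRMT112 examined, 23 with a more negative and 9 with a more positive change in MDA-MB-231. Some were named for the size of their change in this or the KD comparisons, so the tally partly follows from that choice. By the same test 50.9% of all genes tested differed, 23.2% more negative and 27.7% more positive in MDA-MB-231. Each value below is a difference of log2 changes, MDA-MB-231 minus SUM159.

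Among small subunits of complex I the differences were −1.56 for NDUFA7, −0.79 for NDUFB9, −0.62 for NDUFB10, −0.51 for NDUFB11 and −0.14 for NDUFA8, and −0.80 for the readthrough symbol NDUFC2-KCTD14. In complex IV they were −1.23 for COX6B1, −0.75 for COX7A2, −0.74 for COX8A, −0.64 for COX6A1, −0.32 for COX5A and −0.27 for COX4I1. In ATP synthase they were −1.22 for ATP5MF, −1.01 for ATP5MJ, −0.99 for the inhibitor ATP5IF1, −0.58 for ATP5F1E and −0.26 for ATP5MC2. SDHD differed by −0.44, UQCRFS1 by −0.19 and CYC1 by −0.14. TRMT112 itself differed by −0.47, so its polysome-associated mRNA fell further in MDA-MB-231.

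The positive differences were those of large subunits: 1.01 for UQCRC2, 0.97 for ATP5F1B, 0.88 for NDUFA9, 0.84 for ATP5F1A, 0.60 for SDHA, 0.54 for UQCRC1, 0.54 for NDUFS1 and 0.47 for NDUFV1. Of the mitochondrial genes, MT-CO1 differed by −0.45, MT-ND6 by −0.23 and MT-ND4L by 0.24. The smallest of these differences were not stable: the call of NDUFA8 was lost without any 1 of the MDA-MB-231 and SUM159 libraries except MDA-MB-231 KD replicate 1 (−0.06 without MDA-MB-231 KD replicate 2), that of MT-ND4L without MDA-MB-231 EV replicate 1, either MDA-MB-231 KD library, SUM159 EV replicate 2 (0.14) or SUM159 KD replicate 2, that of CYC1 without MDA-MB-231 KD replicate 2 (−0.10), and that of NDUFC2-KCTD14 without MDA-MB-231 KD replicate 2 (−0.67) or SUM159 EV replicate 2 (−0.48).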

How the results depend on the processing

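Under 9 to 11 alternatives per result besides leaving out libraries, the direction of each nuclear median and of each gap between the genomes was kept. The gap does not move with library scaling, so alternatives that change only the scaling could not test it. Scaling by library size alone gave 6 nuclear members higher and 55 lower in MDA-MB-231 KD, with a median of −0.18. In SUM159 KD the nuclear median was 0.27 by DESeq2 and 0.27 with RLE factors. For the difference between the lines, 0 mitochondrial genes were more positive in MDA-MB-231 by DESeq2, with RLE factors, by library size alone and with a mean of at least 50 counts, 5 and 4 were more negative under the last 2 of these, and the nuclear median was −0.39 with that filter. The causes were not tested. Leaving out 1 library at a time gave a SUM159 nuclear median of 0.20 to 0.27, 1 to 2 mitochondrial genes higher in BT549 OE, a gap between the genomes there of −0.57 to −0.48, and 0 to 1 mitochondrial genes more positive in the difference between the lines. Lone libraries were assumed to vary like the other groups. Leaving out the readthrough symbols and UQCRHL, a near copy of UQCRH, chosen after seeing the data, moved no count of the KD and OE comparisons by more than 1, and those between EV groups by at most 3. Over the named genes, 3094 of 3265 values kept their direction and side of the threshold, 111 lost a call, 60 gained one and 0 reversed. Of those lost, 39 were with the main transcript tested singly. Replicates of the same number did not deviate together (r = 0.0029, −0.030 and 0.016). No shared shift was thus seen, but this cannot exclude that same-numbered libraries were handled together. A replicate block gave 38 nuclear members lower in MDA-MB-231 KD, 49 higher in SUM159 KD and 61 higher in BT549 OE. Members at a few counts (COX7A1, NDUFA4L2, UQCRHL) are limited by depth.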

Other observations

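The 3 genes of the ATP synthase c ring, which encode the same mature protein with different import sequences, did not move together. In BT549 OE ATP5MC2 fell (−0.20 ± 0.05) and ATP5MC3 was not called (−0.05 ± 0.03), while ATP5MC1 was called higher (0.09 ± 0.04) by edgeR's quasi-likelihood test but lost that call by DESeq2, in a fit of BT549 alone, with no filter, with its main transcript alone, and without BT549 EV replicate 2 or OE replicate 1. In SUM159 KD ATP5MC2 rose (0.29 ± 0.04), and the lower calls of ATP5MC1 (−0.11 ± 0.03) and ATP5MC3 (−0.08 ± 0.03) were lost by DESeq2 and without SUM159 EV replicate 2, among other settings.

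NDUFAB1, the mitochondrial acyl carrier protein that is also a complex I subunit, went from 69.5 and 67.2 to 156 and 145 CPM in BT549 OE (1.14 ± 0.05), from 125 and 128 to 111 and 108 in SUM159 KD (−0.21 ± 0.04), and was not called in MDA-MB-231 KD (0.02 ± 0.05). It was chosen after its values were seen.

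COX7C, a complex IV subunit, fell in MDA-MB-231 KD (−0.44 ± 0.03) and SUM159 KD (−0.16 ± 0.03) and rose in BT549 OE from 107 and 108 to 227 and 223 CPM (1.06 ± 0.04). In all, 5 nuclear members were lower in both KD comparisons and higher in OE, which is 5.88% of them against 2.99% of all genes tested. COX7C too was chosen after its values were seen.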
